A study of Arabidopsis thaliana with 8 samples.

Results

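The 388 genomic regions described here are promoter peaks of the transcription factor GBF2 that were listed for seedlings treated with tunicamycin and had no counterpart in the list for the solvent DMSO. They were taken from the 767 peaks of the tunicamycin list by 2 conditions: the authors' position class was a promoter of up to 1 kb, and no base was shared with any of the 320 peaks of the DMSO list. The first condition left 583 peaks, of which 388 met the second (66.6%, by the rule itself) and 195 overlapped a DMSO peak and are called shared promoter peaks below. Among tunicamycin peaks of any class 63.9% had no DMSO overlap. In the other direction, 26 of the 221 DMSO promoter peaks of the same class had no overlap in the tunicamycin list.

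Whole seedlings of Arabidopsis thaliana, genotype pGBF2:GBF2-Ypet (Col-0), were 5 days old when they were placed for 6 h in liquid medium with tunicamycin at 0.5 µg/mL or with DMSO alone. All groups carry GBF2 fused to Ypet, a fluorescent protein, expressed from the promoter of GBF2, and a seedling without it was not part of these groups. Chromatin bound by the fusion was pulled down with an antibody against GFP, giving 2 libraries per treatment, and 2 input libraries per treatment were made without antibody, 8 libraries in all. The files hold 1 peak list per treatment and no value per library, so neither sequencing depth nor replicate spread is known. A site missing from the DMSO list was not called there, which is not the same as unbound, and no value at that site in DMSO is given. A seedling mixes many cell types, and binding in more cells and stronger binding per cell cannot be told apart. Without values per library no test over seedlings could be made, and what follows is a description of peaks and genes.

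GBF2 is a bZIP protein of the G-box binding factor group, which recognises the G-box, a palindromic DNA element with an ACGT core found in light-, sugar- and abscisic acid-responsive promoters. Tunicamycin blocks N-glycosylation of proteins in the endoplasmic reticulum (ER), where unfolded proteins then build up and the unfolded protein response raises chaperones, folding enzymes and degradation factors. Several bZIP proteins carry that response in plants.

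The peaks were narrow and of modest score. The score is the authors' value per peak (called a signal value in the files, with no stated scale), and it orders peaks within the tunicamycin list only. Member scores ran from 1.89 to 3.51 with a median of 2.35 and quartiles of 2.203 and 2.525, while the shared promoter peaks ran from 2.08 to 7.25 with a median of 2.85. The ranges overlapped widely, yet 16 of the 388 peaks (4.12%) exceeded the median of the shared ones, and 28 of the 195 shared peaks exceeded every tunicamycin-only peak. Both sets were split by the DMSO list, so this difference describes the choice of members and carries no test. From the bottom of the scale upwards, all 16 promoter peaks under a score of 2 were tunicamycin-only, 153 of 178 between 2.25 and 2.5 (86.0%), 78 of 124 between 2.5 and 2.75 (62.9%), 17 of 55 between 2.75 and 3 (30.9%) and 0 of 16 at 4 or above. In the whole tunicamycin list, 7 of the 388 stood among the 100 strongest peaks and 90 among the 320 strongest.

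**Figure D1:**
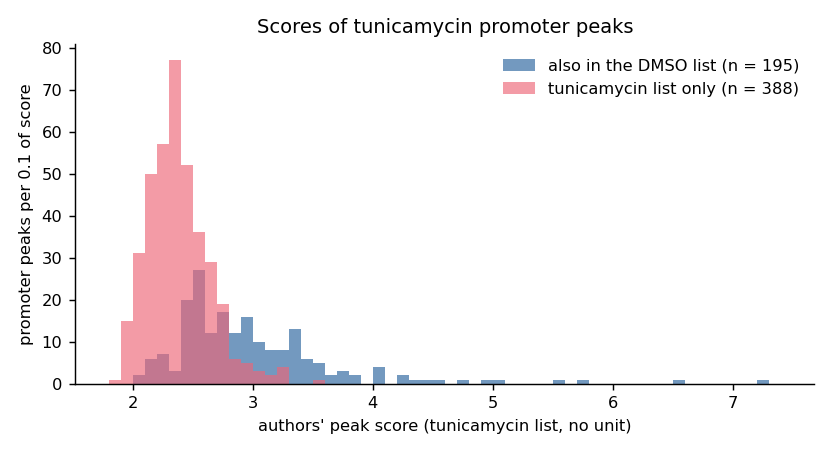
Histogram of the authors' peak score (no unit) for the 583 tunicamycin promoter peaks of up to 1 kb, in bins of 0.1. The 388 peaks absent from the DMSO list pile up between about 2 and 2.75, and the 195 peaks also present in the DMSO list extend to 7.25.

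Lengths were uniform. The median was 831 bp (quartiles 774 and 972 bp), 286 of 388 peaks (73.7%) measured 700 to 1000 bp, and 23 exceeded 1500 bp. Shared promoter peaks had a median of 993 bp, and 29 of 195 exceeded 1500 bp. The shortest tunicamycin-only peak, of 543 bp, lay at PP2CG1, a protein phosphatase 2C gene, followed by DGK1, a diacylglycerol kinase gene (647 bp), and AT3G05425 (652 bp). The longest lay at PUB9, a U-box ubiquitin ligase gene (2487 bp), at the ethylene response factor gene ERF5 (2067 bp) and at the dehydrin gene ERD14 (1926 bp). Score and length were weakly related across the 388 peaks (Pearson r = 0.15, Spearman rho = 0.27). Both values come from the same reads, and the relation is given as a description without a test.

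**Figure D2:**
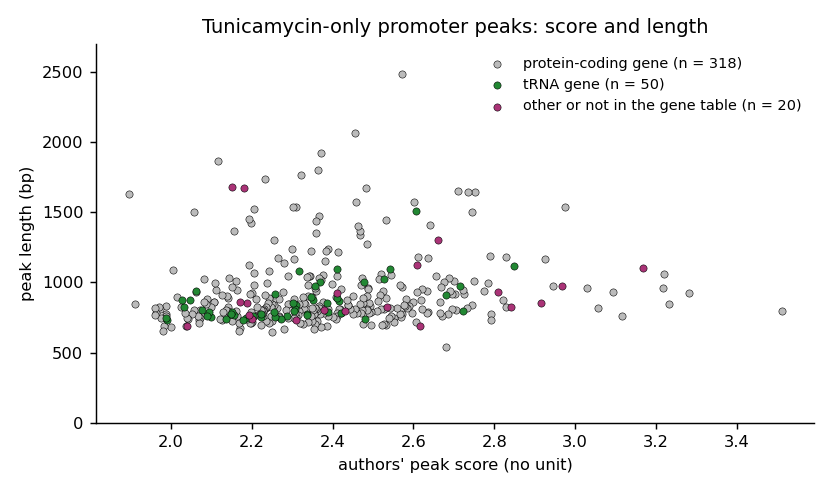
Score (x axis, no unit) and length in bp (y axis) of each of the 388 tunicamycin-only promoter peaks, coloured by the kind of the assigned gene. Of all 388 points 286 lie between 700 and 1000 bp, and the tRNA genes hold no score above 2.85.

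Each of the 388 peaks was assigned to a gene of its own. The 20 highest scores were spread over genes of unlike function, and several of these loci have no symbol in the gene table used. AT3G05260 led with a score of 3.51, at rank 44 of the whole tunicamycin list, at chromosome 3, 1498679 to 1499473 (TAIR10, as for all coordinates). EXPA16 (AT3G55500), an expansin that loosens cell walls, followed with 3.28 at chromosome 3, 20576739 to 20577662. SDG14 (AT3G61740), a SET-domain histone methyltransferase also named ATX3, had 3.23 at chromosome 3, 22856714 to 22857559. TBP1 (AT5G13820), which binds telomeric DNA, had 3.22 at chromosome 5, 4460046 to 4461108. These leading scores lay within the range of the shared promoter peaks.

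Further down the 20 came the protein kinase gene SNRK2.3, described with the abscisic acid genes, SDH2-3, the iron-sulphur subunit of succinate dehydrogenase (score 3.03), SCPL49, a serine carboxypeptidase-like gene (2.98), and KLCR2, a kinesin light chain-related gene (2.82). The others were AT3G15548 (3.22), AT4G37895, which gives a long non-coding RNA (3.17), AT4G16660 (3.12), AT1G01240 (3.10), the transcribed pseudogene AT4G21437 (2.97), AT2G35880 (2.95), AT1G04000 (2.93), AT4G08949 (2.92), the isoleucine tRNA gene AT4G39985 (2.85), AT5G17233 (2.84), AT5G13100 (2.83) and AT2G21300 (2.83). At the lower end stood GTE2, a bromodomain gene (1.89), which had the lowest score of all 767 peaks. UTR3, a gene for a UDP-sugar transporter (1.91), EMB1135 (1.96), PBCP, the photosystem II core phosphatase (1.96), and IMPA-9, an importin alpha gene (1.96), came next.

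Distances to DMSO peaks were measured next. The distance to the nearest DMSO peak on the same chromosome had a median of 135 kb (quartiles 50.4 and 280 kb), and 21 of 388 lay within 10 kb. The DMSO list is sparse, with 320 peaks over the genome, and the distance expected of other sites was not computed. The smallest gap was 963 bp, at SHV3, a gene for a cell wall protein needed in root hairs. RAD23C, a ubiquitin receptor gene (1096 bp), BTI3, a reticulon gene of the ER membrane (1461 bp), RVE2, a MYB-like clock-related gene (1809 bp), and COR47, a dehydrin gene (2538 bp), were next. On the other side of the limit, the shared promoter peak with the smallest overlap, at AT2G12510, still shared 332 of its 339 bp, and the next, at AT5G10340, shared 421 of 426 bp. Overlap could also be partial, as at AT1G75810, where 1033 of 2339 bp were shared. The farthest members were those at HTA7, a histone H2A gene, 1390 kb from a DMSO peak, at IREG3, a gene for an iron-regulated transporter (1074 kb), at the pseudogene AT3G44516 (1070 kb), at AT4G14342 (994 kb) and at the asparagine tRNA gene AT1G26430 (962 kb).

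**Figure D3:**
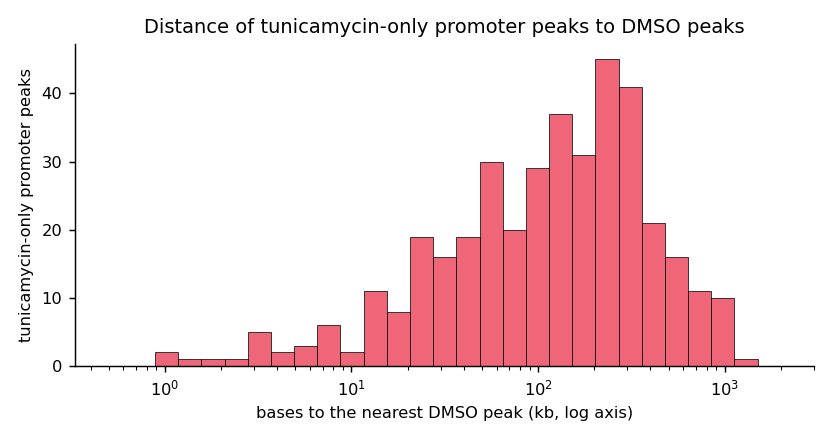
Number of tunicamycin-only promoter peaks by the distance in kb to the nearest DMSO peak on the same chromosome (log axis). The bulk lies beyond 10 kb, with a median of 135 kb and a smallest value of 0.963 kb.

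Genes beside the member genes were looked up as well. In the gene table, 6 of the member genes have a direct neighbour with a DMSO peak. The share expected of other genes was not computed, so this count is a description only. COR47 (peak at chromosome 1, 7085935 to 7087114, score 2.61) sits next to ERD10, another dehydrin gene, whose promoter peak was in both lists (tunicamycin score 2.98). SHV3 neighbours FIM1, RAD23C neighbours LBD41 and AT3G15200 neighbours ERF4. The remaining neighbours are AT5G41605, beside BTI3, and AT3G56360, beside AT3G56370. RVE2 was the 1 gene of the 388 that also had a DMSO peak of its own, in the promoter class of 2 to 3 kb (DMSO score 2.65). That upstream site was also in the tunicamycin list (score 2.31), and the nearer site, chromosome 5, 14752782 to 14753584, was in the tunicamycin list alone (2.48).

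Members at neighbouring genes were counted too, and the number of pairs expected of other genes was not computed. Their genes formed 4 pairs of direct neighbours, AT3G24180 with AT3G24190, AT4G16490 with AT4G16500, SNRK2.7 with AT4G40011, and AT5G16110 with AT5G16120. The SNRK2.7 pair had 328 bases between its peaks. Of the 388 genes, 7 carried a tunicamycin peak of another class beside their member peak. Among them were MYB77, an auxin-response MYB gene, with scores of 2.62 at the near site and 2.998 in the class of 1 to 2 kb, and RVE2 above. The share of tunicamycin-only peaks among promoter peaks was lowest on chromosome 1 (90 of 154, 58.4%, 95% Wilson interval 50.5 to 65.9%) and highest on chromosome 5 (98 of 133, 73.7%, 65.6 to 80.4%). Wilson intervals here cover counting error only, and the chromosomes' intervals overlap.

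Transfer RNA genes, which are transcribed by RNA polymerase III from internal promoters, were the second most frequent kind of gene after protein-coding ones. Of the 388 peaks 318 were assigned to protein-coding genes, 50 to tRNA genes (12.9%, 9.91 to 16.6%), 7 to pseudogenes, 2 to long non-coding RNA genes, 1 to another non-coding RNA gene, 1 to the microRNA gene MIR842 and 9 to identifiers that are not in the gene table. Shared promoter peaks held 12 tRNA genes of 195 (6.15%, 3.55 to 10.4%). Counted over the genome, 50 of 625 nuclear tRNA genes had a tunicamycin-only promoter peak (8.0%), against 318 of 27444 nuclear protein-coding genes (1.16%). With shared promoter peaks the figures were 1.92% of tRNA genes and 0.609% of protein-coding genes, and with any DMSO peak 3.36% and 0.849%. Over tunicamycin peaks of any class they were 9.92% and 2.27%. The share was thus higher at tRNA genes in both treatments' lists.

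Leucine tRNA genes were the most frequent, with 10 of the 40 in the table, among them AT4G18255 (score 1.99) and AT5G40945 (2.53). A further 4 leucine genes had shared promoter peaks, and leucine led in the DMSO list too, with 8 genes that had a DMSO peak of any class. Alanine and glycine tRNA genes followed with 5 each, of 33 and 41, and isoleucine and serine with 4 each, of 22 and 64. In proline tRNA genes the count was 1 of 66 and in tyrosine 3 of 75. No member lay at a glutamate, histidine or threonine tRNA gene, of which the table holds 24, 10 and 24. On chromosome 1, which holds 238 tRNA genes, 12 had a member peak (5.04%), and on chromosome 3 11 of 92 did (12.0%). The highest score, 2.85, belonged to the isoleucine gene AT4G39985 at chromosome 4, 18541699 to 18542818, and the median over the 50 was 2.30, against 2.36 for the members at protein-coding genes. Among the 90 members within the 320 strongest tunicamycin peaks, 6 lay at tRNA genes (6.67%), so the share fell when weak peaks were left out. Many tRNA genes are near-identical copies, and how reads that match several places were placed is not given in the sources used here, so the assignment to a single copy is uncertain.

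**Figure D4:**
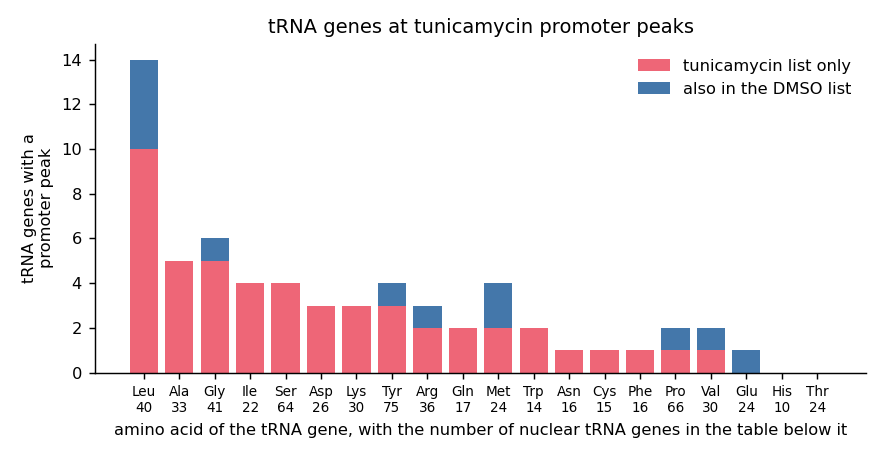
Number of nuclear tRNA genes with a tunicamycin promoter peak of up to 1 kb, by amino acid, with the number of tRNA genes in the gene table under each name. Leucine leads with 10 tunicamycin-only and 4 shared genes, and proline, with 66 genes in all, has 1 of each.

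Folding enzymes of the ER are described first, since tunicamycin acts there. Of 23 listed chaperones and folding enzymes, 5 had a tunicamycin-only promoter peak (21.7%, against 1.16% of all protein-coding genes). A further 4 of the 23 had a shared one, against 0.609% of all protein-coding genes, and 14 had none in the tunicamycin list. Peaks at these genes were thus not particular to the members. The gene lists were chosen with earlier results of these data known. BIP3 (AT1G09080), the stress-inducible HSP70 of the ER, had a peak of 1472 bp at chromosome 1, 2931285 to 2932756, with a score of 2.37. ERDJ3B (AT3G62600), a J-domain co-chaperone of the BiP proteins, had 2.67 at chromosome 3, 23153177 to 23154143, the highest of the 5 and the 1 within the strongest 50% of the list. SDF2 (AT2G25110), which forms a complex with ERDJ3B, had 2.12 at chromosome 2, 10683638 to 10684377. The protein disulfide isomerase genes PDIL2-1 (AT2G47470) and PDIL2-2 (AT1G04980) had 2.35, at chromosome 2, 19480834 to 19481634, and 2.38, at chromosome 1, 1415781 to 1416642. The 4 with shared promoter peaks, SHD, CRT1A, CRT1B and P58IPK, scored 2.76 to 3.43 in the tunicamycin list, above each of the 5.

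Upstream of the chaperones, the sensors and transcription factors of the response had 1 member among 12 genes, NAC089, a membrane-tethered NAC factor of the ER (score 2.51, chromosome 5, 7377290 to 7378086). None of the 14 genes of ER-associated degradation, N-glycosylation and ER export was a member, and SAR1B had a shared promoter peak. Some further members were picked by name after the members were known, and they are examples with no tally behind them. ALG3, a mannosyltransferase that builds the lipid-linked N-glycan precursor, had 2.52. MEE31, a phosphomannose isomerase whose product feeds mannose donors, had 2.753. 

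Abscisic acid signalling had members at some steps and none at others. The groups are small, and 1.16% of all protein-coding genes were members. In this pathway receptors of the PYR/PYL family bind the hormone and inhibit clade A protein phosphatases 2C, which frees SnRK2 kinases to phosphorylate bZIP factors, and AFP proteins bind and restrain the bZIP factor ABI5. None of the 14 receptor genes was a member. Of the 9 clade A phosphatase genes PP2CA (AT3G11410) and HAI2 (AT1G07430) were members, with scores of 2.14 and 2.63. HAI1 (2.61) was left out by position alone, since its tunicamycin-only peak was in the class of 1 to 2 kb. Of the 10 SnRK2 genes 2 were members. SNRK2.3 had 3.06 at chromosome 5, 26709612 to 26710432, at rank 113 of the whole list, and SNRK2.7 had 2.29. None of the 5 listed bZIP factors of the pathway, ABI5 and ABF1 to ABF4, had a tunicamycin peak. Of the 4 AFP genes AFP1 (2.73) and AFP3 (2.55) were members, and TMAC2, the gene of another AFP protein, had a shared promoter peak (3.34). The members in this pathway thus included phosphatases and AFP proteins, which restrain it, as well as kinases, which carry it. The SnRK2, AFP and receptor families were added after the members' names were seen.

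Genes that respond to abscisic acid, cold and drought had 4 members of 13 (30.8%, against 1.16% of all protein-coding genes). These were the dehydrin genes COR47 (2.61) and ERD14 (2.37), KIN2, induced by cold (2.24), and the alcohol dehydrogenase gene ADH1, induced by low oxygen and cold (2.53). A shared promoter peak lay at ERD10 alone, with a score (2.98) above those of the 4 members. Over all protein-coding genes 0.609% had a shared promoter peak. This list, too, was chosen with earlier results of these data known. The other 8 genes, RD29A, RD29B, RAB18, COR15A, COR15B, KIN1, RD22 and NCED3, had no peak in either list. Other cold-related members, picked by name, were CBF2, an activator of cold-induced genes (2.41), COR27 (2.49), GRP2, a cold shock domain protein (2.749), the galactinol synthase gene GolS3 (2.67) and TIL, a lipocalin (2.37). The related gene GolS2 had a shared promoter peak (2.95). Kinases of neighbouring stress pathways were present as well. Of the 21 MAPKKK genes MAPKKK14 (2.48), MAPKKK15 (2.54) and MAPKKK17 (2.34) were members (14.3%). None had a shared promoter peak, but 0.609% of all protein-coding genes had one, so none is unremarkable in a group of 21. Of 26 CIPK genes, whose kinases are partners of calcium sensors, CIPK15 (2.79) and CIPK20 (2.55) were members (7.69%) and CIPK12 had a shared promoter peak. The CIPK family was added after the members' names were seen.

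NAC genes gave the highest number of members, though not the highest share, among the transcription factor families counted. Among 100 genes that carry a NAC number, 7 were members (7.0%, where 1.16% of protein-coding genes were), and 1, NAC2 (AT3G15510), had a shared promoter peak. ATAF1, a stress-induced factor, had the highest score, 2.58, at chromosome 1, 267785 to 268615, and NAC089 followed with 2.51. NAC076, a factor of xylem vessel formation, had 2.37, and NAC3 (AT3G15500, also ANAC055), a factor of jasmonate and abscisic acid responses, had 2.23. NAC053, a membrane-bound factor, had 2.15, ATAF2 2.08 and NAC047 2.07. These 7 scores covered most of the middle and lower part of the members' range.

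The other families differ in size, and their counts are read against the 1.16% of all protein-coding genes. Of 46 bZIP genes (2.17%) BZIP53, a group S factor of low-energy and seed programmes, was the 1 member (2.28). None of the 7 listed G-box factor genes was one, and GBF1, GBF2 and GBF3 had shared promoter peaks. The GBF2 peak measured 6193 bp, and the DMSO peak it overlapped was assigned to another gene. The fusion construct also carries the GBF2 promoter, and its part in that peak was not tested. WRKY47 (score 2.03) was the 1 member of 72 WRKY genes (1.39%), MYB77 that of 125 MYB genes (0.8%) and ERF5 (score 2.45) that of 28 genes with an ERF number (3.57%), in each case with 1 further gene that had a shared promoter peak. The B-box genes BBX27 (2.79) and BBX29 (2.49) were members of 31 (6.45%), and BBX28 had a shared promoter peak. The cytokinin response factor genes CRF3 (2.70) and CRF4 (2.42) were members of 12 (16.7%). That family was added after the members' names were seen, so its share is no fair match to the 1.16%. Of 234 cytochrome P450 genes CYP97B3 was 1 member (score 2.36, 0.427% of the genes), and of 24 alpha-expansin genes EXPA16 was 1. None of 22 genes that carry a bHLH number, 11 YUCCA genes and 6 reference genes was a member. Genes of the bHLH family under other names were not counted.

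**Figure D5:**
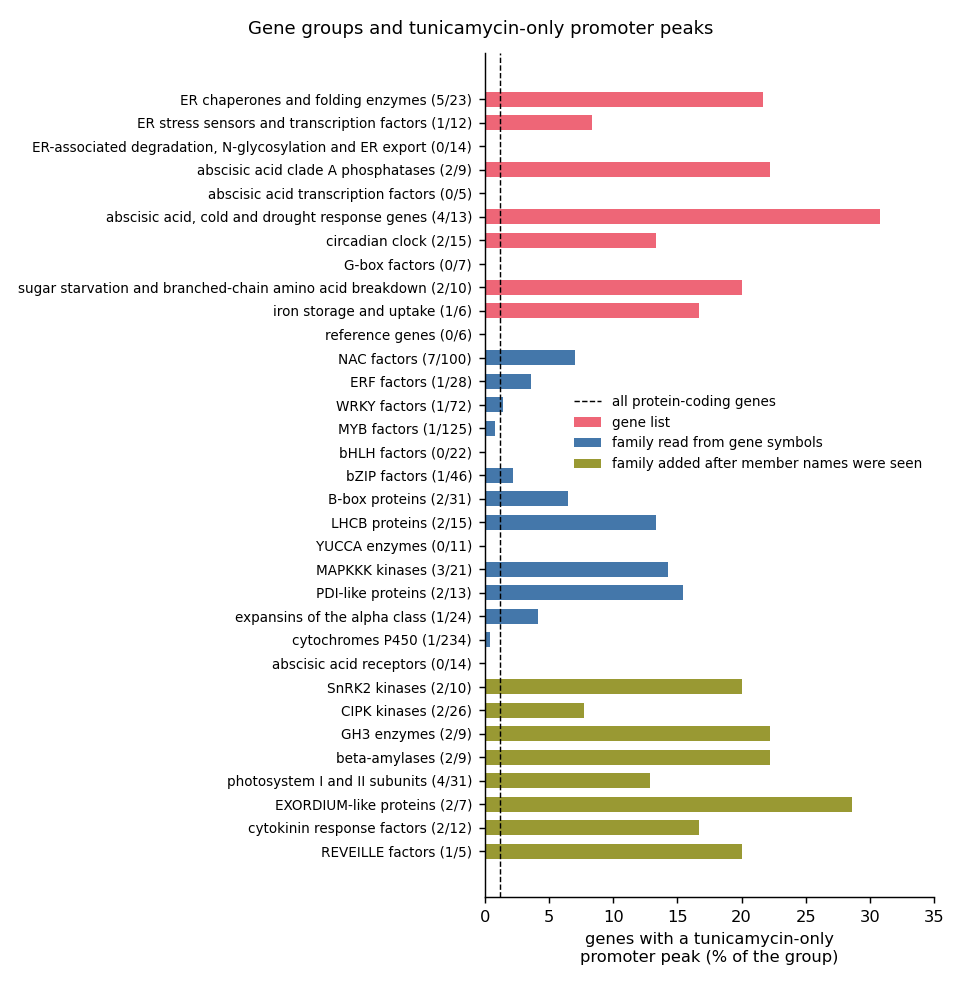
Percentage of the genes of each group that had a tunicamycin-only promoter peak, with the number of such genes and the group's size in brackets, for groups of 5 genes or more. The dashed line marks the 1.16% of all nuclear protein-coding genes, and the bars run from 0 to 30.8%.

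Genes of the clock, of light responses and of photosynthesis were counted next. Over all protein-coding genes 1.16% were members and 0.609% had a shared promoter peak. Of 15 listed clock genes CCA1 (2.14) and LHY (1.99), the MYB repressors expressed at dawn, were members, and 5, TOC1, PRR3, PRR5, PRR7 and RVE1, had shared promoter peaks with scores of 2.55 to 4.42. The scores of CCA1 and LHY lay under all 5. Members picked by name were FKF1, a blue-light receptor F-box gene of photoperiodic flowering (2.52), BOA, a homologue of the evening gene LUX (2.53), and HY2, which makes the phytochrome chromophore (2.41). Of 31 subunit genes of photosystems I and II, a family added after the members' names were seen, 4 were members (12.9%). They were PSBP-1 of the oxygen-evolving complex (2.55), the assembly factor gene PSB27 (2.52), and PSAH-1 (2.52) and PSAK (2.11) of photosystem I. Of 15 LHCB antenna genes LHCB4.2 (2.35) and LHCB2.3 (2.198) were members, and LHCB6 had a shared promoter peak (3.09). Among the photosystem subunit genes PSBQ-2 (3.10) and PSBR (3.07) had shared promoter peaks. These shared peaks scored above every member of both groups, so peaks at such genes were not particular to the members. HEMA2, a glutamyl-tRNA reductase gene of tetrapyrrole synthesis, had 2.77.

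Genes of carbon supply, auxin and iron were counted last, in small groups, beside the same 1.16% and 0.609% of all protein-coding genes. Of 10 listed genes of sugar starvation and branched-chain amino acid breakdown DIN10, a raffinose synthase gene (2.26), and MCCA, a subunit of methylcrotonyl-CoA carboxylase (2.27), were members, and none had a shared promoter peak. The beta-amylase genes BMY3 (2.71) and BAM2 (2.32), of 9, the EXORDIUM-like genes EXL4 (2.67) and EXL2 (2.60), of 7, and TPS7 of the trehalose phosphate synthase family (2.61) were members too. For auxin, GH3.3 (2.61) and DFL1 (2.24), of 9 GH3 genes whose enzymes conjugate the hormone, were members. Among the same 9 genes, BRU6 had a shared promoter peak that scored above both members. WES1 had a peak in the DMSO list alone, so peaks at GH3 genes were not particular to the members. The beta-amylase, EXORDIUM-like and GH3 families were added after the members' names were seen. In iron handling the ferritin gene FER3 (2.64) was the 1 member of 6 listed genes. FER1 had a shared promoter peak (3.34), and the iron reductase gene FRO2 had a shared peak in the class of 1 to 2 kb. BTS, an E3 ligase that restrains iron uptake, had 2.34, and NRAMP3, a vacuolar metal exporter, 2.35.

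Together the 11 lists held 120 genes, of which 17 (BIP3, ERDJ3B, SDF2, PDIL2-1, PDIL2-2, NAC089, PP2CA, HAI2, COR47, ERD14, KIN2, ADH1, CCA1, LHY, DIN10, MCCA and FER3) were members, and all 17 had scores between 1.99 and 2.67. Within the strongest 50% of the tunicamycin list 6 of the 17 were left. Over all protein-coding genes 318 of 27444 (1.16%) were members. The lists were chosen with earlier results of these data known, so the tally of 17 is a description only. All 388 members were in the list that the authors had set apart as specific to tunicamycin. Its promoter class held 404 peaks, and the other 16 overlapped a DMSO peak.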

How the data were processed

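Chromatin immunoprecipitation (antibody against GFP) and input libraries of whole seedlings formed 4 groups of 2. MACS2 2.1.2, Bowtie 1.1.2, SAMtools 1.8, cutadapt 1.8.1, FastQC 0.11.5 and the build TAIR10 are named in the submitters' processing notes. How they were used, the peak threshold, and whether replicates were pooled or input subtracted is not given in the sources used here. There are 3 peak lists that the authors deposited (DMSO, tunicamycin and tunicamycin-specific), with a score per peak called signal value per the file headers, a length in bp, a position class and 1 gene per peak. Scores were compared within the tunicamycin list only. Depth per library is unknown, and a list called from more reads can be longer.

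Peaks were shared if they overlapped by at least 1 bp. Symbols, gene kinds, tRNA amino acids and gene order were read from RefSeq's TAIR10.1 gene table, in which 379 of 388 member genes and all 120 listed genes were found. Its coordinates were not set against peaks. Families were read from symbols and synonyms by prefix and number, so members without such a name are missed; 11 of the 24 families were added after member names were seen. Shares carry 95% Wilson intervals; no test was run. The members and lists were chosen with earlier results of these data known. Genes were named by rule: the 20 highest and 5 lowest scores, the 5 nearest to and farthest from a DMSO peak, the 3 longest and shortest, neighbours, and list genes. Those given as picked by name were chosen after their values were seen, as were single genes named beside a family. The interval code was tested on simulated data. Searches for G-box and ER stress motifs, planned earlier, were not run, as no genome sequence was used here. Values were computed in Python 3.11.15 with SciPy 1.17.1, numpy 2.4.6 and pandas 2.3.3, and drawn with matplotlib 3.10.9.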

Additional observations from a re-analysis of the deposited data

How the results depend on the processing

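The number of members, of protein-coding, tRNA and listed genes among them, and the median score and length moved little under other overlap rules (50% of the shorter peak, midpoints within 200 bp, DMSO peaks at least 500 or 2000 bp away) and with the authors' tunicamycin-specific list: 384 to 409 members, against 388. Using the strongest 50% of the DMSO list gave 486, and promoter classes of up to 3 kb gave 422. Restricting the tunicamycin list moved every value, because weak peaks leave it. Its strongest 50% held 126 members at 108 protein-coding and 9 tRNA genes (7.14%), with a median score of 2.61, a median length of 889 bp and 6 listed genes. Its strongest 320 peaks, a setting chosen after seeing the data, held 90 members at 76 protein-coding and 6 tRNA genes (6.67%), with 2.68, 921 bp and 4 listed genes. The tRNA share was thus lower than 12.9% in both settings, which hold 9 and 6 tRNA genes. No paired analysis was possible because the files hold no values per library; for the same reason no replicate could be left out. The promoter motif alternatives were not run.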

Other observations

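The authors' files give the strand of the assigned gene, and it was uneven. Of the 388 tunicamycin-only promoter peaks, 225 were assigned to genes of strand 2, which a file header calls anti-sense (58%, 95% Wilson interval 53.0 to 62.8%), as were 122 of the 195 shared promoter peaks (62.6%, 55.6 to 69.1%). The members at protein-coding genes showed it (192 of 318, 60.4%, 54.9 to 65.6%), while those at tRNA genes had 20 of 50 on strand 2 (40.0%, 27.6 to 53.8%). Tunicamycin peaks of other position classes had 86 of 184 on strand 2 (46.7%, 39.7 to 53.9%). The strand of all genes is not in the table used here, so the genome's own share was not compared, and the role of the gene assignment was not tested.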
